A study of Mus musculus with 12 samples.

Results

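Olfactory receptor genes were the subject here: all rows of the gene table whose symbol is Olfr followed by a number, pseudogenes included, whose raw counts summed to 20 or more over the 12 libraries. The members were chosen by that sum of counts, so their presence in the tissue is a condition of the choice and not a finding. The rule kept 87 of the 1410 olfactory receptor rows (6.17%), out of 55487 rows in the table, and the kept rows held 10202 of the 12540 counts assigned to olfactory receptors (81.4%). Of the other rows, 584 held 1 to 19 counts and 739 held none. RNA came from nasal tissue, labelled as nasal epithelium, of male C57BL/6 mice aged 6 weeks. The 3 groups had 4 libraries each: a PBS vehicle group whose labels name day 10, mice exposed to the diesel particle preparation KDP20 and labelled day 5, and mice exposed to KDP20 and labelled day 10. A vehicle group of day 5 was not used here, so in the day 5 comparison exposure and day cannot be told apart. The labels do not say that each library is a separate animal, so the p-values measure only the spread between these libraries, which may be technical.

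Olfactory receptors are G-protein-coupled receptors that detect odorants on the cilia of olfactory sensory neurons. Each mature neuron is known to transcribe 1 allele of a single receptor gene out of the whole repertoire, so that in whole tissue each receptor's RNA comes from a small scattered subset of neurons and single genes have low levels. Receptor genes lie in clusters on many chromosomes. Class I receptors, the family also found in fish, lie in a single cluster on chromosome 7, and class II receptors make up the rest. In bulk RNA, fewer cells of a type and less RNA per cell cannot be told apart.

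Most olfactory receptors share a short coding motif at the inner end of the third membrane-spanning helix, in which an aspartate and an arginine codon are followed by a tyrosine or phenylalanine codon. It is shown for 6 rows on which the results below turn, because it lets the family relation be read in the RNA itself. The stretches are 30 bases of coding sense strand, read from the GENCODE M21 transcripts (build GRCm38, the same assembly as mm10), with the codons of the motif in capitals. Olfr615 and its neighbour Olfr616 are class I, the others class II, and the number after each name below is the position of the stretch.
Olfr615, chr7:103560833-103560862, plus strand: atggcttttGACCGCTTTgtggccatcagt
Olfr616, chr7:103564891-103564920, minus strand: atggcttttGATCGGTTTgttgctattcgt
Olfr1177-ps, chr2:88344341-88344370, minus strand: atggcctatGACAGATTTgttgcagtgtgt
Olfr934, chr9:38982668-38982697, minus strand: atggcttatGACCGCTTTattgccatatgc
Olfr856-ps1, chr9:19658264-19658293, minus strand: atggcgtatGACCGGTTTgtggccatatgt
Olfr1396, chr11:49113341-49113370, minus strand: atggcttatGATCGCTATgtggccattagc

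The motif was found in the transcripts of 80 of the 87 members and of 1149 of all 1410 receptor rows. The 80 members spelled its 9 bases in 25 ways, and the most common spelling occurred in 19 of them. The 9 bases of Olfr615 and Olfr934 are the same and occurred in 9 members, whereas those of Olfr1177-ps occurred in no other member. The row named Olfr1177-ps is annotated as protein coding in GENCODE M21 despite its name, and its longest open reading frame has 319 codons. Olfr856-ps1 is annotated as an unprocessed pseudogene, and its longest open reading frame has 272 codons.

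Which strand the counts come from could not be settled from the deposited table. Genes of olfactory neuron signalling that have an abundant row on the other strand showed this: Gnal, the G protein alpha subunit of olfactory transduction, had 149 to 463 counts per library, while Mppe1, whose exons overlap those of Gnal on the other strand, had 2928 to 13354. Likewise Adcy3, the olfactory adenylyl cyclase, had 156 to 383 counts and the opposite gene Cenpo 5008 to 9592. Omp, the marker protein of mature olfactory neurons, which has no such neighbour, had 22 to 135 counts. A change of a receptor row is therefore a change in reads assigned to that row, and need not be a change of that receptor's mRNA. Among the receptor rows, 19 had at least 50 exon bases opposite another gene's exons, 6 of them members. The 13 rows of other genes that lie opposite a receptor held 2845 counts, against 164 counts in the receptors they face. The largest was Gm47944, with 1469 counts, and Olfr1358, the receptor opposite it, had 0; Gm48860 had 762 counts and its opposite Olfr31 had 16. Of the 13, 4 were tested, and none was called in any of the 3 comparisons.

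The signal was concentrated in a few genes. The 4 members with the most counts (Olfr615, Olfr461, Olfr1177-ps and Olfr934) held 32.0% of all member counts, the first 12 held 56.4%, and the median member had 56 counts over all 12 libraries. At the edge of the rule, Olfr574, Olfr1508, Olfr678 and Olfr19 had exactly 20 counts, and Olfr1291-ps1, Olfr1471, Olfr160, Olfr237 and Olfr802 stayed out with 19. Counts were present in every library for 34 of the 87 members. Over the members' exons the level per length was a different order: in the vehicle group, Olfr1397-ps1 had the highest level per kilobase among the members with the most counts, 21.6 CPM (counts per 1000000 counts of library size, here scaled by the TMM method) per kilobase of exon. Olfr615 had 15.95 and Olfr856-ps1 15.8 CPM per kilobase, and Olfr461, the second by counts, 8.49. Olfr1397-ps1, on chromosome 11, lies inside Cep112 on the opposite strand without sharing exons; its row had 429 counts in all and that of Cep112 0 to 6 per library.

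Members were spread over 14 chromosomes, and chromosome 7 had the most, 32 of its 293 receptor rows. The class I stretch, chr7:102476579-105369355 between Olfr543 and Olfr692, had 21 members among 156 rows (13.5%), against 66 among the 1254 rows elsewhere (5.26%). It held 28.6% of the member counts, with Olfr615 alone at 1202. Chromosome 2, which has the most receptor rows (373), had 11 members. Members had longer annotated exons than the other receptor rows (median 3144 against 2510 bases), and a longer gene collects more reads at the same level. Of the members, 80 are annotated as protein coding and 7 as pseudogenes. Stretches of 50 bases shared with another annotated transcript made up over 10% of 22 members and none of 23. Reads of the shared stretches could be assigned to either gene or dropped: Olfr540-ps1 shared 100% of its stretches with Olfr539, which lies over it on the opposite strand, Olfr643 shared 45.2% and Olfr1035-ps1 34.9%.

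Receptor counts took a smaller share of the libraries of the day 10 group. Given as raw CPM, counts per 1000000 of the unscaled library total, the 87 members held 463, 520, 451 and 456 in vehicle replicates 2, 4, 5 and 6, and 351, 388, 454 and 419 in day 5 replicates 5, 6, 7 and 8. They held 394, 253, 285 and 227 in day 10 replicates 1, 2, 3 and 5. The 95% Wilson intervals, which cover counting error only, ran from 422 to 546 over the vehicle libraries and from 207 to 311 over day 10 replicates 2, 3 and 5, while that of day 10 replicate 1 was 367 to 423. The mean share was 473 ± 32.1 raw CPM in the vehicle group, 403 ± 43.9 at day 5 and 290 ± 73.6 at day 10 (SD, n = 4 each). All 4 day 10 libraries lay below all 4 vehicle libraries, and day 5 overlapped both groups. The day 10 mean differed from that of the vehicle group by -38.7% and the day 5 mean by -14.8%. Day 10 replicate 1 stood with the day 5 libraries: taken alone, its share was 0.26 below the vehicle mean on the log2 scale, against 0.71 for the whole group. No test was made of the summed share, since the members were selected on the same counts.

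**Figure D1:**
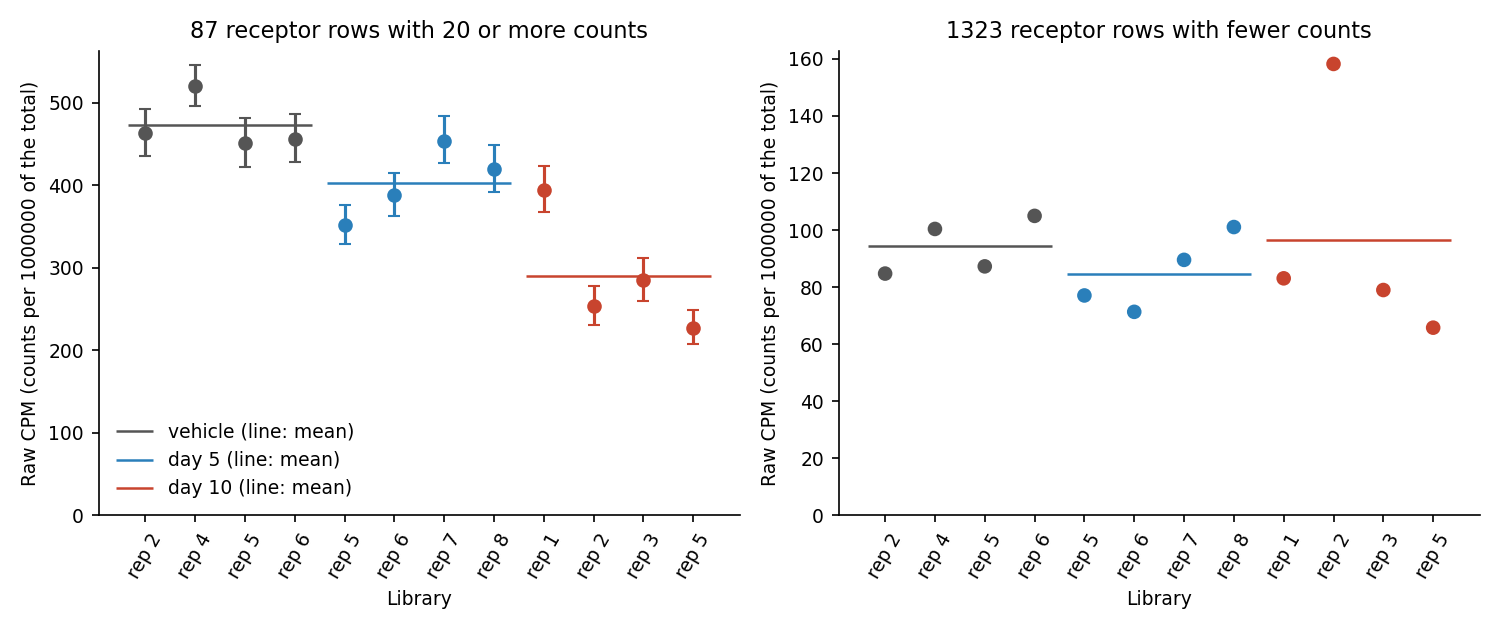
Share of each library's counts assigned to olfactory receptor rows, in raw CPM (counts per 1000000 of the library total), for the 87 members (left, bars show 95% Wilson intervals) and the 1323 rows with fewer than 20 counts (right). Each point is a library and each line a group mean; the member share of day 10 replicates 2, 3 and 5 lies between 227 and 285, and the highest share of the low rows is that of day 10 replicate 2, at 158.

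Both the class I members and the remaining members had a lower mean share at day 10. The 21 class I members held 137 ± 11.5 raw CPM in the vehicle group, 117 ± 10.6 at day 5 and 81.8 ± 35.9 at day 10 (SD, n = 4). In day 10 replicate 1 they held 130, within the vehicle range of 125 to 148, and in the other day 10 libraries 54.5, 88.0 and 54.5. The 66 other members held 336 ± 39.7, 286 ± 40.7 and 208 ± 39.4 raw CPM, and here all 4 day 10 libraries (264, 199, 197 and 172) lay below the vehicle range of 305 to 391. The mean share of the low rows outside the rule was 94.4 ± 9.86 raw CPM in the vehicle group and 96.5 ± 41.8 at day 10. The day 10 mean rests on day 10 replicate 2, which held 158 raw CPM spread over 156 rows. The other day 10 libraries held 65.8 to 83.1 raw CPM, below the vehicle range of 84.8 to 105, as the members did. Day 10 replicate 2 also had the highest share for low rows of every kind: all rows of the table with 1 to 19 counts held 3707 raw CPM there and 2248 to 2891 in the other day 10 libraries.

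The share of a single row that is no receptor, CT010467.2, moved with the day 10 group. It took 7.25% to 10.1% of the counts in the vehicle libraries, 9.69% to 12.6% at day 5, 11.2% in day 10 replicate 1, and 17.9%, 25.5% and 22.9% in day 10 replicates 3, 2 and 5. With its counts left out of the total, the member share was 499 to 562 raw CPM in the vehicle group and 294 to 444 at day 10, and the difference of the means was -31.1%. Total counts per library were 1993550 to 3227138 for vehicle, 2028315 to 2425920 for day 5 and 1658420 to 2036661 for day 10. A sum of 20 counts is thus more easily reached by rows high in the deeper vehicle libraries. A count of 3, the limit that a count of 0 allows, was 0.93 to 1.81 raw CPM.

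Gene by gene, 24 of the 87 members had enough counts to be tested in edgeR's quasi-likelihood fit over 13181 rows of the whole table, and they held 72.4% of the member counts. The other 63, with at most 94 counts each, did not pass the filter on low values. At day 10 against vehicle, 3 of the 24 fell with a Benjamini-Hochberg adjusted p under 0.05 (12.5%) and none rose, where the background over all tested rows was 3.15% lower and 3.93% higher. At day 10, 8 of the 24 had an unadjusted p under 0.05. The share of all tested rows under that limit is not given here, so this count cannot be read as particular to receptors. The median log2 fold change of the 24 was -0.57, and 22 were negative, against a median of -0.01 over all tested rows. With all 87 members kept in the fit, 67 were negative and the median was -0.50, and 52.1% of all 20433 rows were negative. Since the members were chosen by their counts, and those tested by a filter on the same counts, these medians describe the members and support nothing further.

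Olfr856-ps1, a class II pseudogene on chromosome 9, had 16.6, 12.6, 15.7 and 14.9 CPM in vehicle replicates 2, 4, 5 and 6. At day 5 it had 9.34, 15.9, 12.6 and 10.1 CPM, and in day 10 replicates 1, 2, 3 and 5 5.14, 9.61, 2.51 and 8.57 CPM. Every day 10 library was below every vehicle library. The log2 fold change at day 10 was -1.21 ± 0.35 (SE, edgeR, adjusted p = 0.038). None of its 50-base stretches occurs in another annotated transcript.

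Olfr1396, a class II receptor gene on chromosome 11 that lies within the span of Olfr56 on the opposite strand, had 7.05, 6.43, 3.55 and 4.98 CPM in the vehicle libraries. It had 4.25, 3.37, 6.07 and 4.03 CPM at day 5, and 2.06, 0, 1.88 and 1.71 CPM in day 10 replicates 1, 2, 3 and 5. The day 10 values rest on 4, 0, 3 and 3 counts, all below the vehicle range. Its log2 fold change was -1.89 ± 0.57 (SE, edgeR, adjusted p = 0.047), the lowest of the 24. With all 87 members kept in the fit, its adjusted p was 0.068 (edgeR). Its day 10 counts were too low for the filter, so it was tested only through its higher vehicle and day 5 libraries. The row of Olfr56 had 13 counts over all libraries, so that it gives no reading of the other strand.

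Olfr615, the class I gene with the most receptor counts, had 51.5, 48.9, 63.4 and 57.5 CPM in the vehicle libraries and 48.4, 53.9, 50.5 and 56.4 CPM at day 5. Day 10 replicates 2, 3 and 5 had 23.3, 28.3 and 10.9 CPM, whereas day 10 replicate 1 had 55.0 CPM, within the vehicle range. The groups therefore overlapped. The log2 fold change was -0.89 ± 0.27 (SE, edgeR, adjusted p = 0.048). Olfr615 and Olfr616 face each other on chromosome 7 with their 3′ ends overlapping by 52 bases; Olfr616 had 3 counts in all 12 libraries.

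These 3 calls lay close to the threshold. Leaving out any of the 12 libraries except day 10 replicate 1 ended the calls of Olfr615 and Olfr1396, with adjusted p up to 0.17 and 0.16. The call of Olfr856-ps1 was kept without day 10 replicate 1 or day 5 replicates 5, 6 or 8, and ended without each of the other 8 libraries (adjusted p 0.0505 to 0.12). The log2 fold changes stayed negative throughout, from -0.61 (Olfr615 without day 10 replicate 5) to -2.12 (Olfr1396 without day 10 replicate 1).

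**Figure D2:**
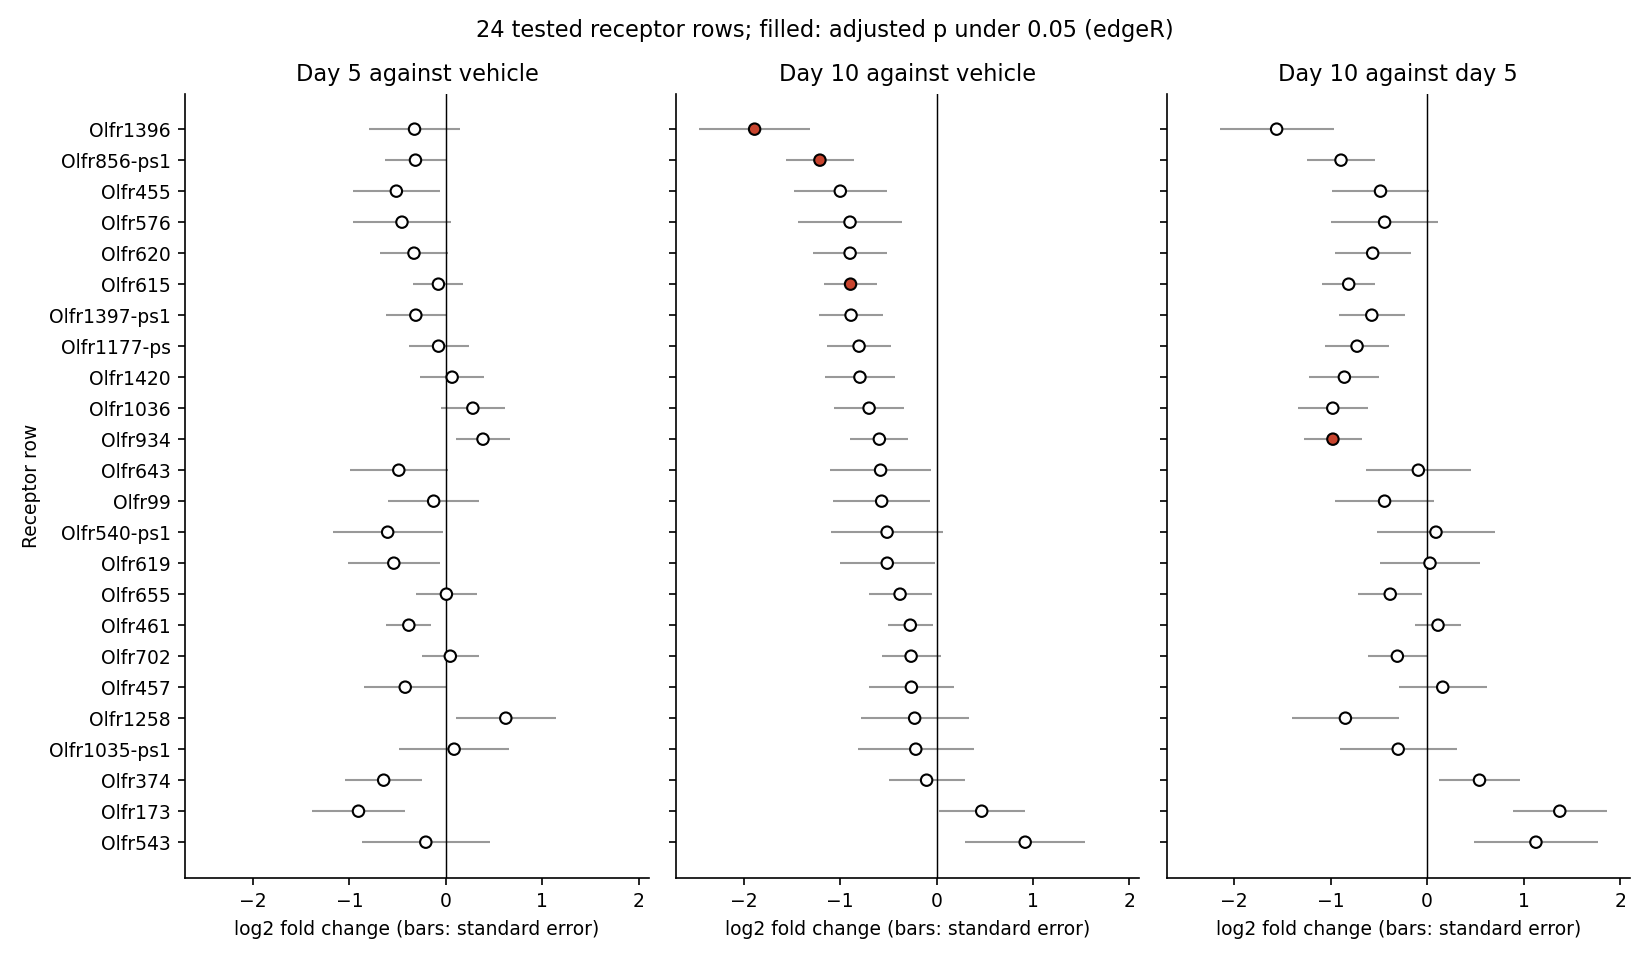
Log2 fold change of the 24 tested receptor rows in the 3 comparisons, ordered by the day 10 value, with standard errors as bars and filled points for an adjusted p under 0.05. At day 10 against vehicle 22 of the 24 points lie left of 0, and the filled points are Olfr1396, Olfr856-ps1 and Olfr615.

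Several large receptors showed the split of day 10 replicate 1 from the other 3 day 10 libraries without a call. The split was not general. Of the 87 members, 26 had the highest day 10 value in replicate 1 and 25 in replicate 2. For 21 it was replicate 3 and for 15 replicate 5. Among the 24 tested members, these counts were 10, 7, 6 and 1. Olfr1177-ps had 17.3 to 36.1 CPM in the vehicle group, 34.98 CPM in day 10 replicate 1 and 10.3, 10.04 and 10.9 CPM in day 10 replicates 2, 3 and 5. Its log2 fold change was -0.80 ± 0.33 (SE, edgeR, adjusted p = 0.14). Olfr576, a class I gene, had 6.99 to 13.1 CPM in the vehicle group and 14.4, 0.69, 1.26 and 3.998 CPM in day 10 replicates 1, 2, 3 and 5. Its log2 fold change was -0.90 ± 0.54 (SE, edgeR, adjusted p = 0.32). Without day 10 replicate 1, 6 of the 29 tested members were called lower at day 10: Olfr615, Olfr1177-ps, Olfr576, Olfr934, Olfr1396 and Olfr856-ps1. The share of all tested rows called in that fit is not given here, so this count cannot be read as particular to receptors. In day 10 replicate 1 alone, against the vehicle group, Olfr615 had a log2 fold change of 0.00. This compares a single library, chosen after its values were seen, and gives no test of day 10.

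**Figure D3:**
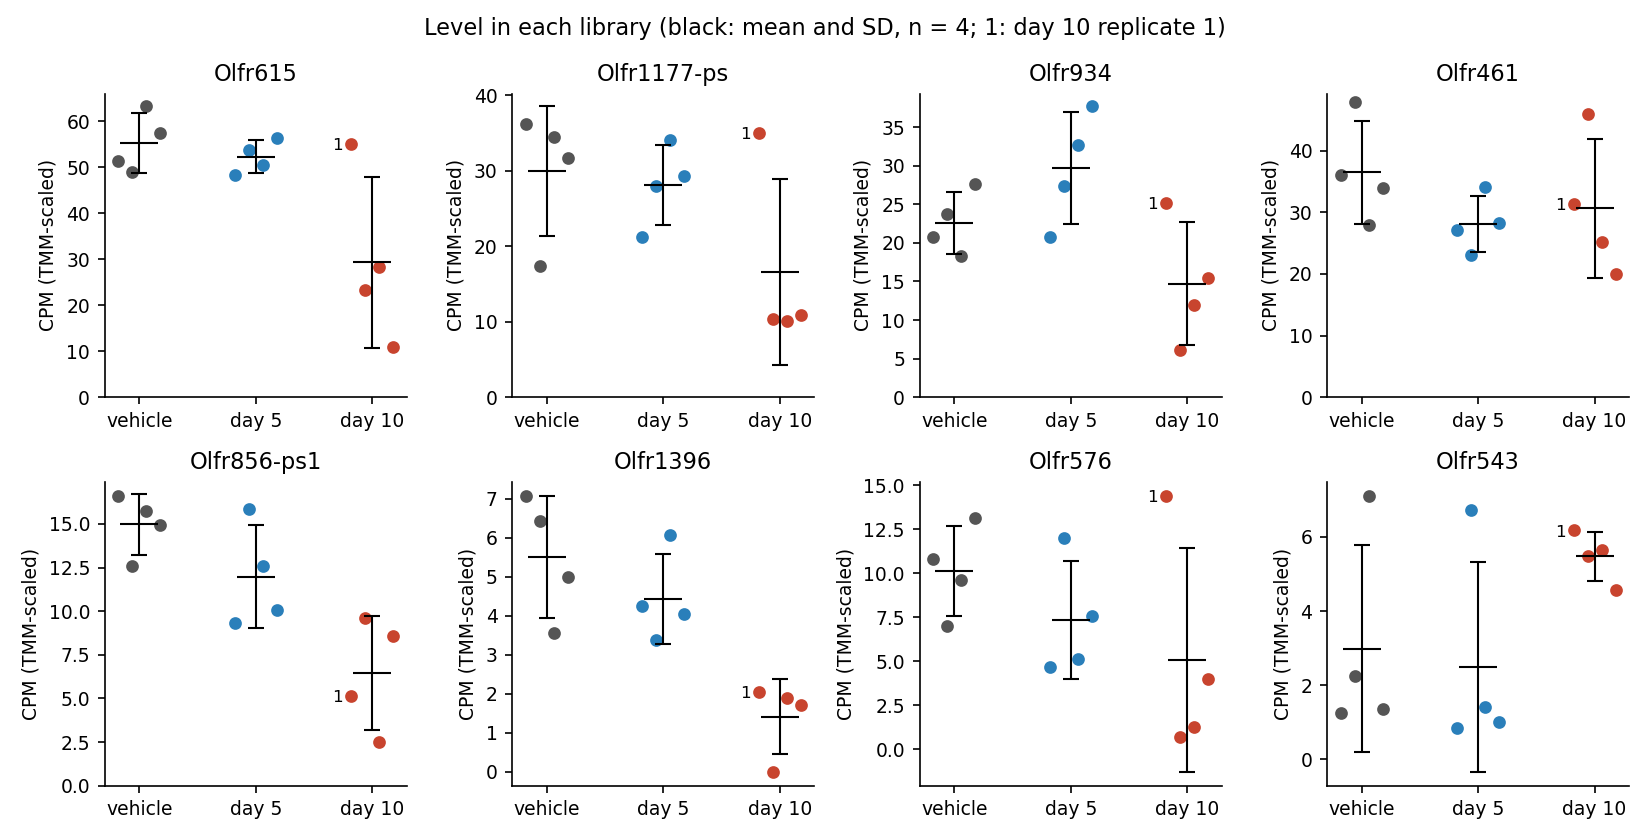
Level of 8 receptor rows in each library, in CPM on TMM-scaled library size, by group, with the mean and SD (n = 4) in black and day 10 replicate 1 marked 1. Olfr615, Olfr1177-ps, Olfr934 and Olfr576 have day 10 replicate 1 well above the other day 10 libraries, Olfr856-ps1 and Olfr1396 have all 4 day 10 libraries below the vehicle group, and Olfr461 and Olfr543 follow neither pattern.

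Of the 24 tested members, 2 had a positive value at day 10, and others were lower without a call. Olfr461, the second by counts, had 36.1, 47.8, 27.9 and 34.0 CPM in the vehicle libraries and 31.4, 46.0, 25.1 and 19.99 CPM in day 10 replicates 1, 2, 3 and 5. The groups overlapped, and the log2 fold change was -0.27 ± 0.24 (SE, edgeR, adjusted p = 0.52). Olfr543, at one end of the class I stretch, had 1.24, 2.24, 7.11 and 1.36 CPM in the vehicle libraries and 6.17, 5.49, 5.65 and 4.57 CPM at day 10, and Olfr173 on chromosome 16 had 2.54 to 6.43 and 5.14 to 9.61 CPM. They were the 2 tested members with a positive value, of 0.92 ± 0.62 (SE, edgeR, adjusted p = 0.39) and 0.47 ± 0.45 (SE, edgeR, adjusted p = 0.56). Olfr702, a class II gene of chromosome 7, had 11.8 to 23.9 CPM in the vehicle group and 9.42 to 21.3 at day 10. Olfr455 (-0.998 ± 0.48), Olfr576 and Olfr620 (-0.90 ± 0.38) had lower values than the called Olfr615 but did not pass the test. Olfr1420, a class II gene on chromosome 19, had 10.6 to 13.7 CPM in the vehicle group and 3.43 to 12.6 CPM at day 10 (-0.79 ± 0.36, edgeR, adjusted p = 0.18), and the class I gene Olfr655 had 13.2 to 18.6 and 4.81 to 17.6 CPM (-0.38 ± 0.33, edgeR, adjusted p = 0.52). Olfr1036, a class II gene on chromosome 2, had 7.61 to 11.3 CPM in the vehicle group and 3.43 to 9.26 CPM at day 10 (-0.70 ± 0.37, edgeR, adjusted p = 0.25). The remaining negative members with the values closest to 0 were Olfr374 (-0.10), Olfr1035-ps1 (-0.22) and Olfr1258 (-0.23).

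Counting members whose groups did not overlap gave few genes. Over all 87, every day 10 library lay below every vehicle library for 5 members (5.75%): Olfr856-ps1, Olfr1396, Olfr172, Olfr591 and Olfr90. The background over all 20433 rows with 20 or more counts was 4.15%, so the members' share is near it. No member lay wholly above the vehicle group, where the background was 3.71%. Olfr172 had 13, 22, 5 and 9 counts in the vehicle libraries and 4, 1, 4 and 0 at day 10, and Olfr90 had 3, 5, 4 and 3 counts in the vehicle libraries and 0, 0, 1 and 2 at day 10, so single counts decide these orders. Olfr173, on chromosome 16 like Olfr172, shared 10.7% of its 50-base stretches with other transcripts, Olfr172 the most, and the fit of all members gave Olfr172 a log2 fold change of -1.75 and Olfr173 one of 0.47 at day 10.

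The base composition of the members moved with the result. GC content was that of each gene's longest annotated transcript. The 24 tested members had a median GC content of 40.9%, from 32.2% to 50.2%, against 50% over all tested rows. Of the 24, 23 lay under 50%. Over the whole table, the day 10 fold change was higher at higher GC content: the median log2 fold change was -0.65 over 81 rows of 30 to 35% GC, -0.45 over 618 rows of 35 to 40%, -0.31 over 2301 rows of 40 to 45%, and 0.22 over 2328 rows of 55 to 60%. In the bin of 40 to 45% GC, the 12 members had a median of -0.45, against -0.31 for all rows, and 7.08% of all rows in it were called lower. In the bin of 35 to 40% GC, the 5 members had a median of -0.89, against -0.45, with 15.7% of all rows called lower. The 3 members of 30 to 35% GC had a median of -0.70, against -0.65, with 23.5% of all rows called lower. The 3 members of 45 to 50% GC had a median of -0.89, against -0.13, with 2.57% of all rows called lower, and Olfr543, the only one of 50 to 55% GC, had 0.92 against 0.08. With a correction for GC content in the fit, none of the 24 members was called at day 10, 4 had an unadjusted p under 0.05, 16 were negative and the median was -0.21. With the share of CT010467.2 as a covariate, none was called, 1 had an unadjusted p under 0.05, and the median was -0.09. The shares of all tested rows called, or with an unadjusted p under 0.05, in these fits are not given here. The loss of calls therefore cannot be read as particular to receptors. Olfr615 was at -0.49 with the GC correction and -0.0051 with the covariate, Olfr1396 at -1.62 and -0.65, and Olfr856-ps1 at -0.84 and -2.10. The parts of base composition, of CT010467.2 and of KDP20 exposure in the receptor values cannot be told apart with these libraries.

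**Figure D4:**
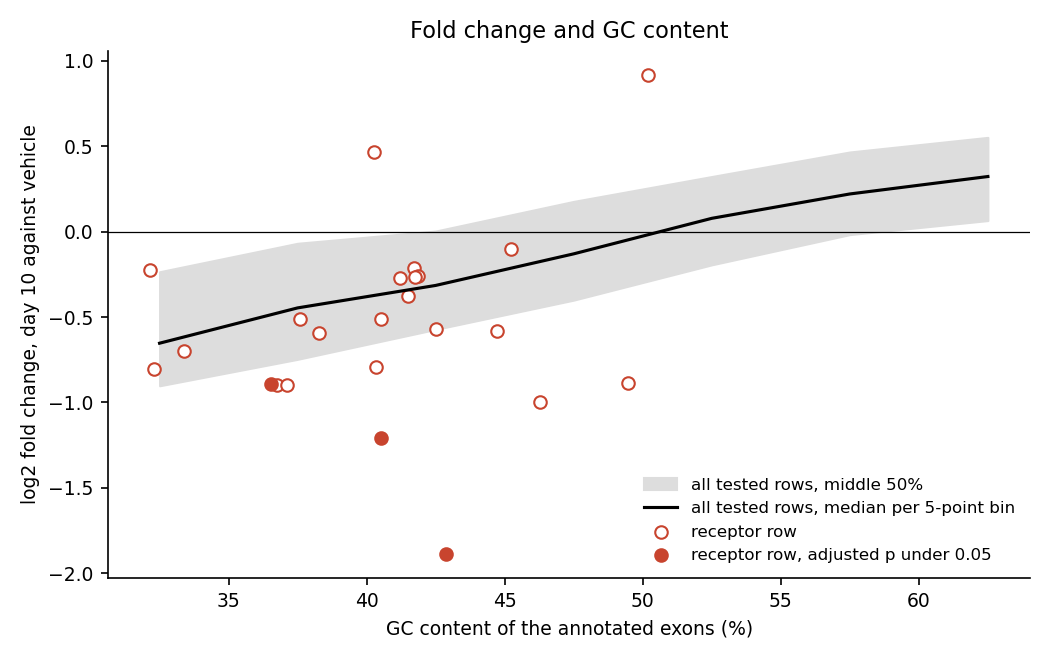
Log2 fold change at day 10 against vehicle (y axis) and GC content in percent (x axis) for the 24 tested receptor rows. The GC content is that of each gene's longest annotated transcript, although the axis label names the annotated exons. The line is the median and the grey band the middle 50% of all tested rows per bin of 5 percentage points. The medians of all rows run from -0.65 at 30 to 35% GC to 0.32 at 60 to 65%, and the called Olfr856-ps1, Olfr1396 and Olfr615 lie below the grey band.

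At day 5 no receptor was called. None of the 24 tested members passed in edgeR, and none had an unadjusted p under 0.05; DESeq2 and limma-voom also called none. The background at day 5 was 0.25% of tested rows called lower and 0.41% called higher. The share of all tested rows with an unadjusted p under 0.05 is not given here. The median log2 fold change was -0.31, with 17 of 24 negative, against -0.03 over all tested rows. With all 87 members in the fit, 50 were negative and the median was -0.12. The lowest values were those of Olfr173 (-0.91 ± 0.48, adjusted p = 0.36), Olfr374 (-0.65 ± 0.40), Olfr540-ps1 (-0.60 ± 0.57), Olfr619 (-0.54 ± 0.48) and Olfr455 (-0.51 ± 0.45), all by edgeR with SE. The highest were Olfr1258 (0.62 ± 0.52), Olfr934 (0.38 ± 0.28), Olfr1036 (0.28 ± 0.33), Olfr1035-ps1 (0.08 ± 0.57) and Olfr1420 (0.06 ± 0.33). Olfr1258 had 17.3 CPM in vehicle replicate 4 and 1.81 to 5.81 in the other vehicle libraries, against 7.05 to 14.0 at day 5. Olfr510 and Olfr556, both on chromosome 7, lay wholly below the vehicle group at day 5 (2.30% of members, background 4.49%), and Olfr589 lay wholly above it (1.15%, background 4.24%); they rest on few counts, and none of the 3 was among the tested rows.

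Between day 10 and day 5, Olfr934 was lower at day 10. This class II gene on chromosome 9 had 20.8, 27.4, 32.7 and 37.8 CPM in day 5 replicates 5, 6, 7 and 8 and 25.2, 6.18, 11.9 and 15.4 CPM in day 10 replicates 1, 2, 3 and 5. Its vehicle values were 20.8, 23.8, 18.3 and 27.6 CPM, so the day 5 group held the highest values and day 10 replicate 1 lay among the other groups. The log2 fold change of day 10 against day 5 was -0.98 ± 0.30 (SE, edgeR, adjusted p = 0.038), and against vehicle it was -0.59 ± 0.30 (adjusted p = 0.23). The call held when any vehicle library, day 5 replicate 5 or day 10 replicate 1 was left out, and ended without each of the other 6 libraries (adjusted p 0.061 to 0.13). It was the only call among the 24 (4.17%), where the background was 5.49% of tested rows lower and 4.66% higher. The median log2 fold change was -0.44, with 17 of 24 negative, against 0.01 over all tested rows. Olfr173 had the highest value (1.37 ± 0.49, adjusted p = 0.074): 1.27 to 4.03 CPM at day 5 and 5.14 to 9.61 at day 10, with no overlap. Without day 10 replicate 1, 5 of the 29 tested members were called lower, namely Olfr615, Olfr934, Olfr1177-ps, Olfr1036 and Olfr576. The share of all tested rows called in that fit is not given here either. The comparisons of day 10 with vehicle and with day 5 share the day 10 libraries, so their values are not independent.

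Genes of the olfactory neuron other than its receptors gave a mixed picture. A list of 17 genes was read for olfactory neuron signalling, and its genes were not checked for expression in other cell types. At day 10 against vehicle, 15 own rows were tested. Of these, 1 rose (Slc12a2, a chloride cotransporter, 0.83 ± 0.22, edgeR, adjusted p = 0.025) and none fell. The median log2 fold change of the tested rows was -0.08. Omp had -0.40 ± 0.31 (edgeR, adjusted p = 0.46). Their summed level overlapped between groups, at 406 to 582 CPM in vehicle and 437 to 577 CPM at day 10. Among the 3 rows opposite genes of this list, Mppe1, opposite Gnal, fell at day 10 (-0.53 ± 0.15, edgeR, adjusted p = 0.034). Mppe1 had 3548 to 4656 CPM in the vehicle libraries, 3448 CPM in day 10 replicate 1, and 2010, 2992 and 2576 CPM in day 10 replicates 2, 3 and 5. The row Cenpo, opposite Adcy3, had a value of 0.20 ± 0.13 (edgeR, adjusted p = 0.36). Of 15 genes of receptor choice and trafficking, 11 own rows were tested, none was called at day 10, and the median was 0.12; of 7 opposite rows, Pprc1, opposite Ldb1, rose (0.83 ± 0.17, edgeR, adjusted p = 0.0089). No row of these lists was called at day 5. At day 10 against day 5, none of their own rows was called, and of the 7 rows opposite genes of receptor choice and trafficking 3 were higher (Il4i1 and Nup62, opposite Atf5, and Pprc1) and 2 lower (Gm10860, opposite Ebf2, at -0.76 ± 0.15, adjusted p = 0.0039, and Dnah14, opposite Lbr), by edgeR.

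Other receptor families and cell types were read in the same way. Of 32 vomeronasal receptor rows with 20 or more counts, 12 were tested. The median log2 fold change of the 12 at day 10 was -0.51, with 10 negative, beside -0.57 and 22 of 24 for the olfactory receptors. With all 32 vomeronasal rows kept in the fit, the median was -0.34 and 18 were negative. The same fit gave -0.50 and 67 of 87 for the olfactory receptors. Vmn1r184 fell at day 10 (-0.99 ± 0.29, edgeR, adjusted p = 0.040) and at day 5 (-1.23 ± 0.29, adjusted p = 0.046), and Vmn1r-ps150 rose at day 5 (1.44 ± 0.32, adjusted p = 0.038). Trpc2, the channel of vomeronasal neurons, had 0 counts in every library. None of the 14 trace amine receptor rows reached 20 counts and 7 were at 0. Own rows of immature neurons (3 of 6 tested), horizontal basal cells (2 of 4) and sustentacular cells (7 of 7) gave no call at day 10, and no globose basal row was tested; their summed levels overlapped with the vehicle group in every case. On the opposite strand, Gm11149, opposite the immature neuron gene Ncam1, rose (0.49 ± 0.14, edgeR, adjusted p = 0.038) and Galnt5, opposite the sustentacular gene Ermn, fell (-0.70 ± 0.21, edgeR, adjusted p = 0.041). Of 5 respiratory ciliated cell genes, 4 own rows were tested and 3 were negative at day 10. Ccdc39 fell (-0.83 ± 0.21, edgeR, adjusted p = 0.022). The list's summed level was 280 to 303 CPM in vehicle and 134 to 290 at day 10. Of 7 lymphocyte genes, only 2 own rows reached 20 counts and were tested. Cd247 fell (-0.47 ± 0.14, edgeR, adjusted p = 0.047), and the other had a positive value of 0.47 without a call. The summed list level was 355 to 385 CPM in vehicle and 227 to 386 at day 10. Of skeletal muscle genes, Atp2a1 rose (0.57 ± 0.16, edgeR, adjusted p = 0.038), from 82.9 to 109 CPM in the vehicle libraries to 172, 153 and 173 CPM in day 10 replicates 2, 3 and 5, while day 10 replicate 1, at 93.1 CPM, lay within the vehicle range. The list's summed level was 103 to 130 CPM in vehicle and 127 to 207 at day 10. Rows opposite muscle genes gave another picture, with no call at day 10. Their summed level was 21.2 to 183 CPM in vehicle and 37.7 to 997 at day 10. A930016O22Rik, opposite Ckm, had 258 CPM in day 10 replicate 1 and 0.69, 3.14 and 14.8 CPM in day 10 replicates 2, 3 and 5. Neutrophil own rows held at most 1.5 CPM, with S100a8 and Ly6g at 0. Gm11505, opposite Mpo, fell at day 10 (edgeR, adjusted p = 0.010), from 2.9 to 19.9 CPM in the vehicle libraries to at most 0.63 CPM. Its day 5 libraries ranged from 0.50 to 33.1 CPM. The day 10 values lay under the limit of 3 counts, so Gm11505 was tested only through its higher vehicle and day 5 libraries. At day 5, Gm44323, opposite the basal cell gene Krt5, and Gm48752, opposite the muscle gene Mybpc1, rose (0.94 ± 0.22 and 2.19 ± 0.47, edgeR, adjusted p = 0.047 and 0.034). At day 10 against day 5, edgeR also called Ccdc39, Cd247, Gm11505, Gm48752 and Gm47079 (opposite the horizontal basal gene Icam1) lower and Atp2a1 higher. The called own rows did not stand for their lists in that comparison. Of the 4 tested ciliated rows, 3 were positive, with a list median of 0.62. The other tested lymphocyte row was at 0.57, and the other tested muscle row at -0.0093. The part of these cell types in the receptor values was not tested.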

How the data were processed

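Total RNA was the input to a SMARTer mRNA sequencing kit, per the labels' protocols. The authors deposited 1 table of raw counts per gene and library; FastQC, Trim Galore, STAR, HTSeq and the build mm10 are named in the submitters' processing notes, but no source used here gives their versions, the strand setting or the gene annotation. Every column of the table belongs to a listed library (0 columns unused). Gene positions, exon lengths, GC content and overlaps were taken from GENCODE M21, which matched 55227 of 55487 rows.

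Counts were fitted in edgeR 4.0.16 (R 4.3.3) with filterByExpr, TMM scaling and the quasi-likelihood test over all 12 libraries with group as the sole term, and p-values were adjusted by Benjamini-Hochberg over all 13181 tested rows at 0.05. Levels are CPM on TMM-scaled library sizes; shares are of raw totals. DESeq2 1.42.0, limma-voom (limma 3.58.1), other scalings and filters, a GC correction, CT010467.2 as a covariate and leaving out libraries were tried as alternatives. Python 3.11.15 made the summaries. No replicate pair agreed within counting noise. The named genes were the 12 members with the most counts, all called members, the 5 lowest and 5 highest tested members at day 10 and day 5, those at the edge of the sum of 20, and tested members with 50 or more exon bases opposite another gene; Olfr172, Olfr591, Olfr90, Olfr510, Olfr556 and Olfr589 were named after their values were seen. The marker lists were of olfactory neuron signalling, receptor choice and trafficking, immature neuron, globose and horizontal basal, sustentacular, vomeronasal, trace amine, ciliated, lymphocyte, neutrophil and skeletal muscle genes. Members and lists were chosen with earlier results of these data known. RefSeq promoter windows (GRCm38.p6) held 70 members, but just 10 had a RefSeq start within 100 bases of the GENCODE start, and promoters were not used. The coding stretch of 1 further receptor is not reported here.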

Additional observations from a re-analysis of the deposited data

Results flagged for a closer look

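In 5 of the groups of 4 libraries checked for the named receptors and the summed shares (75 in all, of which chance alone would mark about 1 in 20), 1 library stood far from the other 3. Olfr1177-ps had 34.98 CPM in day 10 replicate 1 against 10.04 to 10.9 CPM in the other day 10 libraries, and Olfr1258 had 12.9 CPM there against 3.14 to 4.57. Olfr1396 had 0 CPM in day 10 replicate 2 against 1.71 to 2.06, that is 0 counts against 3 or 4, and since a count of 0 allows up to 3 counts, these libraries cannot be told apart at this depth. Olfr543 had 7.11 CPM in vehicle replicate 5 against 1.24 to 2.24, and 6.73 CPM in day 5 replicate 6 against 0.85 to 1.40. Olfr934 differed between the exposed groups, with a log2 fold change of -0.98 at day 10 against day 5.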

How the results depend on the processing

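The number of members called at day 10 against vehicle was 2 or 3 under DESeq2 size factors, upper-quartile scaling, no filter, a filter of 10 CPM in 4 libraries, DESeq2 and limma-voom, and 0 with the GC correction, with CT010467.2 as a covariate, with the 8 compared libraries alone, and, chosen after seeing the data, without day 10 replicates 2, 3 and 5 and with all 87 members tested under the GC correction or the covariate. Leaving out 1 library gave 0 to 6 calls among 26 to 30 tested members. Over the other settings the tested members ranged from 13 (10 CPM in 4 libraries) to 87 (no filter). The share of all tested rows called under each alternative is not given here. The numbers of calls in all 3 comparisons therefore cannot be read as particular to receptors. At day 10 against day 5 (1 call), DESeq2 and limma-voom gave 2 (Olfr934 and Olfr615), and the covariate, the 8 compared libraries alone and the same 3 added settings gave 0; leaving out 1 library gave 0 to 5. The GC correction also gave 1, but Olfr173, higher (1.66 ± 0.49, edgeR, adjusted p = 0.036). At day 5 every setting gave 0.

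The median log2 fold change at day 10 was -0.086 with the covariate, -0.21 with the GC correction and -0.33 without day 10 replicates 2, 3 and 5; leaving out 1 library gave -0.76 to -0.48. Without those 3 libraries the log2 ratio of the summed share was -0.26 against vehicle and -0.031 against day 5, and Olfr615 was at 0.0013; day 10 is then 1 library, assumed to vary like the other groups, and a count of 0 calls says nothing about stability. Leaving out 1 library gave -0.89 to -0.61 (day 10 against vehicle), -0.29 to -0.17 (day 5) and -0.66 to -0.38 (day 10 against day 5), and every other choice of members or denominator kept the sign. With a replicate block, 2 members were called at day 10 against vehicle (Olfr615 and Olfr1177-ps), 0 at day 5 and 1 at day 10 against day 5 (Olfr615), and the median was -0.81; the labels share only numbers, and deviations of same-numbered libraries correlated at -0.09 to 0.12. The cause of these shifts was not tested. Depth limits the members: 63 of 87 were too low to test, and a row under 3 counts cannot be told from 0.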
